A study of Homo sapiens with 8 samples.

Results

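The Notch pathway genes examined here were 3 receptors (NOTCH1, NOTCH2 and NOTCH3), 3 ligands (JAG1, JAG2 and DLL1) and 4 direct target genes (HES1, HES4, HEY1 and NRARP). They were chosen by name, as genes of a pathway known to respond to LSD1 inhibitors in other tumors, and all 10 were found among the 38637 genes of the expression table. Earlier results of these data were known when they were chosen. The cells were SW1990, a long-established line from a human pancreatic adenocarcinoma, and RNA-seq was performed on 8 libraries. Vector cells carried an empty vector and EBF2-OE cells overexpressed the transcription factor EBF2, while Vehicle cells were mock-treated and GSK-LSD1 cells received GSK-LSD1, an inhibitor of the histone demethylase LSD1 (KDM1A). Each group held 2 libraries, numbered 2 and 3 for Vector and EBF2-OE and 1 and 2 for Vehicle and GSK-LSD1, and the labels do not say what the numbers stand for. The titles give 2000 µM for GSK-LSD1, with no treatment time, and the labels do not say how the constructs entered the cells. The paper gives no dose for these libraries, and those it gives for its Western blots of GSK-LSD1 are far lower, so that the unit of this label is in doubt and could not be checked. All 8 libraries came from 1 cell line, and apart from a general statement on independent experiments in the paper, no source says whether the libraries of a group came from separate cultures. The p-values below therefore measure the spread between libraries, which may be technical.

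Notch receptors are membrane proteins that are activated when a ligand of the Jagged or Delta family on a neighboring cell binds them. Cleavage then frees the intracellular domain, which enters the nucleus, joins the DNA-binding protein RBPJ and turns on targets such as the HES and HEY repressors and NRARP, a feedback inhibitor of the pathway. In the pancreas, Notch signaling is known for holding back endocrine and acinar differentiation, and in small cell lung cancer LSD1 inhibitors have been described to raise NOTCH1.

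The promoters of HES1 and HES4 are shown because both carry a facing pair of RBPJ-type letters. These genes also varied most of the 4 targets between libraries. The sequences are from RefSeq (GRCh38.p14) and give the 150 bases before the transcription start, 5′ to 3′ on the strand of the gene. Capitals mark GTGGGAA and TTCACAC, the latter being GTGTGAA read on the opposite strand. HES1 lies on the plus strand at chr3:194135998-194136147, and HES4 on the minus strand at chr1:1000098-1000247. The start RefSeq gives for HES4, position 1000097, lies inside the gene span that the authors' table lists, so that this stretch is upstream of the RefSeq start and not of the whole listed gene.
HES1: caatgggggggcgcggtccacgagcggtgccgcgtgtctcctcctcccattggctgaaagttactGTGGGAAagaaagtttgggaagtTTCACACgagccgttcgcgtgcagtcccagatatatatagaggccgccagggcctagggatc
HES4: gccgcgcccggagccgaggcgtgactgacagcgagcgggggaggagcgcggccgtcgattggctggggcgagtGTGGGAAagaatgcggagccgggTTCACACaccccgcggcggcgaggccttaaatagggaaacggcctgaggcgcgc

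The letters started 85 and 62 bases before the start in HES1 and 77 and 54 bases before it in HES4. Promoter windows of 300 bases (250 before and 50 after the start) were searched on both strands for each set of letters, which cannot overlap each other. GTGGGAA was found in 2194 of 35116 windows (6.25%) and GTGTGAA in 1053 (3%). Windows were given for 8 of the 10 members, all but DLL1 and HEY1, and only HES1 and HES4 among these 8 held either set. The facing arrangement within 35 bases occurred in 7 of the 35116 windows (0.0199%), those of HES1 and HES4 included. The search for the pair was chosen after the sequences had been seen, and the match is a description of letters, not of a bound site.

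The levels of the members are given as TPM (a share of all transcripts that is corrected for gene length), so that genes can be set beside each other. Averaged over the 8 libraries, the order was NOTCH3 (81.1 TPM), HES1 (71.5), JAG2 (58.5), NOTCH2 (47.8), NRARP (40.0), HES4 (38.5), NOTCH1 (37.8), HEY1 (20.7), JAG1 (6.01) and DLL1 (0.0307). The place of HES1 in this order rested on 2 libraries, Vector 3 and EBF2-OE 3, and the ranges of NOTCH2, NRARP, HES4 and NOTCH1 over the libraries overlapped one another, as did those of JAG2 and NOTCH2. The order of these last was reversed in Vector (53.0 ± 11.7 TPM for JAG2 and 55.5 ± 1.95 for NOTCH2, SD, n = 2) and in EBF2-OE (48.9 ± 11.1 and 51.3 ± 5.01), by less than the spread between libraries. Among the members, the cells therefore held RNA of 3 receptors and, in every library, of 1 abundant ligand, JAG2.

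**Figure D1:**
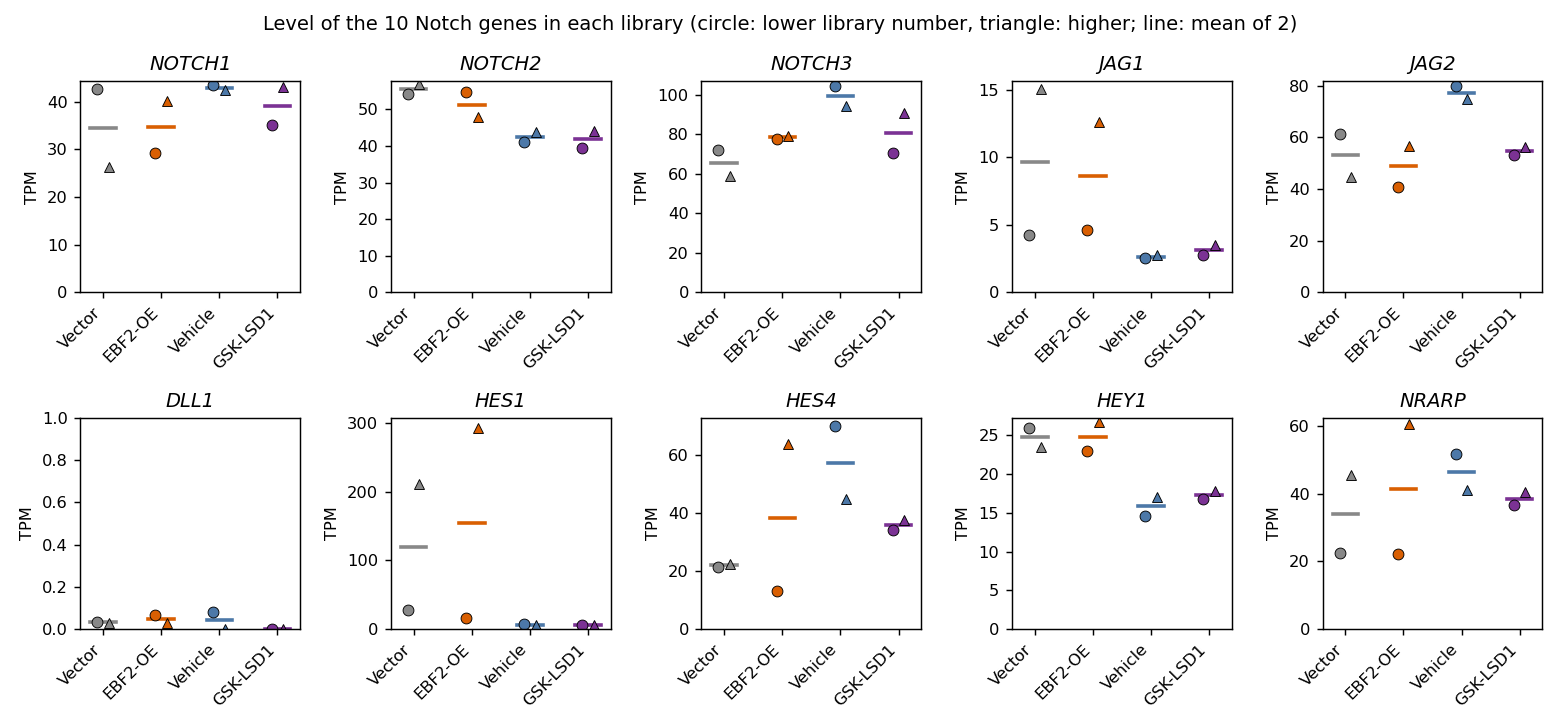
Level of each member in TPM (y axis, starting at 0) in the 4 groups, with a circle for the lower-numbered library, a triangle for the higher-numbered library and a line for the mean of 2. HES1 reached 211 and 293 TPM in the triangles of Vector and EBF2-OE and at most 27.7 TPM in every other library, while DLL1 stayed under 0.1 TPM.

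Among the receptors, NOTCH1 (chr9:136494433-136546048, minus strand) measured 42.6 and 26.2 TPM in Vector 2 and 3, 29.3 and 40.1 TPM in EBF2-OE 2 and 3, 43.5 and 42.5 TPM in Vehicle 1 and 2, and 35.05 and 43.1 TPM in GSK-LSD1 1 and 2. The Vector and EBF2-OE values crossed, and the 2 libraries of each of these groups lay further apart than the group means. NOTCH2 (chr1:119911553-120069662, minus strand) measured 54.1 and 56.9 TPM in Vector, 54.9 and 47.8 in EBF2-OE, 41.2 and 43.9 in Vehicle, and 39.4 and 44.2 in GSK-LSD1. Its level was the steadiest of the members, although NOTCH2 shares near-identical sequence with the NOTCH2NL genes, so that the assignment of its reads is uncertain. NOTCH3 (chr19:15159038-15200995, minus strand) measured 72.2 and 58.9 TPM in Vector, 77.6 and 79.2 in EBF2-OE, 104.7 and 94.5 in Vehicle, and 70.5 and 90.9 in GSK-LSD1. It was higher in both EBF2-OE libraries than in both Vector libraries, and lower in both GSK-LSD1 libraries than in both Vehicle libraries.

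Among the ligands, JAG1 (chr20:10637684-10673999, minus strand) measured 4.23 and 15.0 TPM in Vector, 4.59 and 12.7 in EBF2-OE, 2.52 and 2.74 in Vehicle, and 2.81 and 3.49 in GSK-LSD1. The high values were those of the 2 libraries numbered 3. JAG2 (chr14:105140981-105168776, minus strand) measured 61.3 and 44.8 TPM in Vector, 41.0 and 56.8 in EBF2-OE, 79.9 and 74.8 in Vehicle, and 53.3 and 56.4 in GSK-LSD1, with the Vehicle libraries above all others. DLL1 (chr6:170282200-170291078, minus strand), a Delta-family ligand, was at the limit of detection. It had 1 and 1 counts in Vector, 2 and 1 in EBF2-OE, 3 and 0 in Vehicle, and 0 and 0 in GSK-LSD1, and since a count of 0 still allows up to 3 counts, no fold change is given and the gene was not tested.

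Among the targets, HES1 (chr3:194136148-194138732, plus strand) measured 27.7 and 211 TPM in Vector 2 and 3, 15.4 and 293 TPM in EBF2-OE 2 and 3, 7.20 and 5.92 TPM in Vehicle, and 6.06 and 5.65 TPM in GSK-LSD1. Both libraries numbered 3 stood far above the rest, and all Vehicle and GSK-LSD1 libraries lay below every Vector and EBF2-OE library. HES4 (chr1:998962-1001052, minus strand) measured 21.5 and 22.4 TPM in Vector, 13.0 and 63.9 in EBF2-OE, 70.0 and 44.8 in Vehicle, and 34.3 and 37.8 in GSK-LSD1. Its EBF2-OE libraries lay on either side of the Vector libraries, and its Vehicle libraries differed more from each other than the GSK-LSD1 libraries did. HEY1 (chromosome 8, from 79764010 to 79767767, minus strand) measured 26.0 and 23.6 TPM in Vector, 23.0 and 26.7 in EBF2-OE, 14.6 and 17.0 in Vehicle, and 16.7 and 17.8 in GSK-LSD1. NRARP (chr9:137299631-137302271, minus strand) measured 22.6 and 45.5 TPM in Vector, 22.1 and 60.5 in EBF2-OE, 51.6 and 41.1 in Vehicle, and 36.5 and 40.5 in GSK-LSD1. Again the libraries numbered 3 were the higher ones in Vector and EBF2-OE.

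The split by library number was described further as the ratio of the normalized level in library 3 over that in library 2, without a test. For HES1 the ratio was 7.88 in Vector and 19.2 in EBF2-OE. For JAG1 it was 3.69 and 2.79, and for NRARP 2.09 and 2.77. These 3 members were more than 2-fold apart in the same direction in both groups, as were 2.32% of all genes (361 of 15560). HES4 followed the number in EBF2-OE (ratio 4.98) but not in Vector (1.08). The receptors did not share the pattern, with ratios of 0.638 and 1.38 for NOTCH1, 1.09 and 0.882 for NOTCH2, and 0.846 and 1.03 for NOTCH3. JAG2 (0.756 and 1.40) and HEY1 (0.939 and 1.175) did not share it either. HEY2, a close relative of HEY1 that is no member and was picked after its values had been seen, had 21 and 98 counts in Vector 2 and 3 and 23 and 115 counts in EBF2-OE 2 and 3, with ratios of 4.17 and 4.55. The other tested HES genes outside the members did not follow the number in both groups. Their ratios were 1.02 and 1.29 for HES2, 0.843 and 2.02 for HES6, and 0.392 and 0.940 for HES7. The duct marker SOX9, like HEY2 picked afterwards, had ratios of 2.10 and 3.87. The other duct markers did not share the split, with 0.930 and 0.911 for KRT7 and 1.40 and 1.58 for MUC1. Between libraries 2 and 1 of the GSK-LSD1 experiment, 0 of the members and 32 of 16059 genes were that far apart in both groups.

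**Figure D2:**
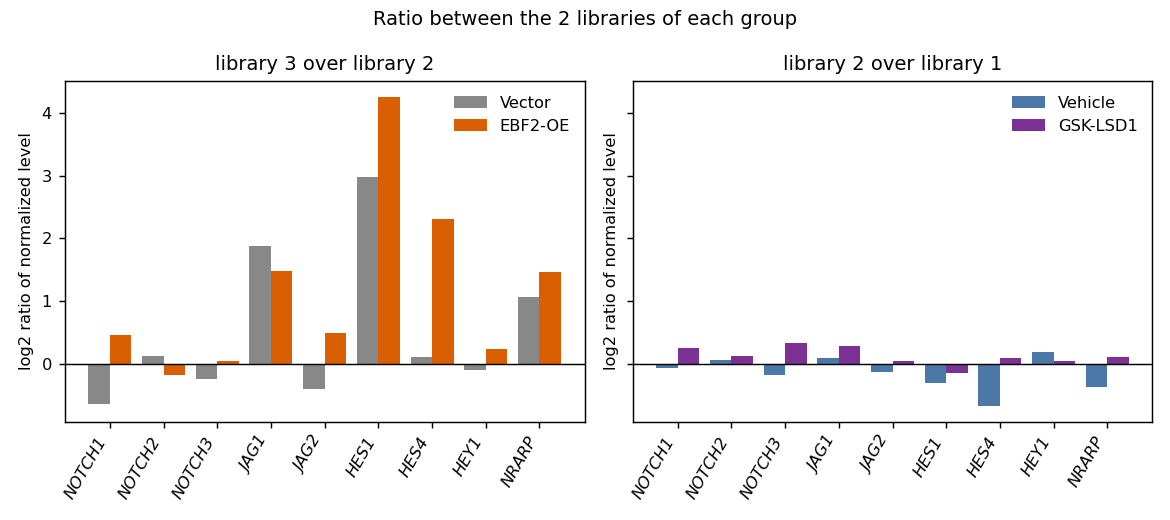
Log2 ratio of the normalized level between the 2 libraries of each group for the 9 members above the low-count filter, with library 3 over library 2 on the left and library 2 over library 1 on the right. JAG1, HES1 and NRARP rise above 1 on the log2 scale in both Vector and EBF2-OE, and no member does so in Vehicle or GSK-LSD1.

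The EBF2 transcript itself also differed between the libraries numbered 2 and 3. Both Vector libraries gave 28 counts of it, whereas EBF2-OE 2 gave 5818 and EBF2-OE 3 gave 90100. The EBF2-OE library with the highest HES1, HES4, JAG1 and NRARP was thus also the one with the most EBF2 RNA. In the Vector libraries, where EBF2 did not differ, HES1, JAG1 and NRARP were higher in library 3 as well. HES4 differed little there (21.5 and 22.4 TPM in Vector 2 and 3). What the library number stands for is not given, and its part in these levels was not tested.

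The comparison of EBF2-OE with Vector asks which genes change when EBF2 is overexpressed. Calls required an adjusted p under 0.05 in edgeR's quasi-likelihood test together with a fold change over 1.5. Of the 9 members tested 0 were called, beside 0% of the 15560 genes tested, and EBF2 itself did not pass either (log2 fold change 10.7, adjusted p of 1.00). In bulk RNA a change of level cannot be told apart from a change in the share of cells that express the gene. The 3 receptors had log2 fold changes of 0.05 ± 0.255 (SE, n = 2 against 2) for NOTCH1, -0.08 ± 0.127 for NOTCH2 and 0.29 ± 0.131 for NOTCH3, each with an adjusted p of 1.00 in edgeR. The ligands stood at -0.14 ± 0.678 (JAG1) and -0.08 ± 0.215 (JAG2). The targets stood at 0.39 ± 1.32 (HES1), 0.84 ± 0.652 (HES4), 0.04 ± 0.161 (HEY1) and 0.30 ± 0.524 (NRARP). The standard errors of HES1, JAG1, HES4 and NRARP were the widest, and these are the members whose libraries split within a group. NOTCH3 was the only member whose groups did not overlap, which was the case for 22.9% of all genes, and its unadjusted edgeR p was 0.0673. DESeq2 called 0 members as well, and 0 passed the fold limit with an unadjusted p under 0.05 in edgeR. The shares of all genes in these settings are not given.

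Single libraries decided the sign of several of these changes. Without EBF2-OE 3, the log2 fold change of HES1 was -2.95, that of HES4 -0.74 and that of NRARP -0.61, and without Vector 3 that of JAG1 was 1.09. HES4 was called when no low-count filter was applied (adjusted p of 0.0255 in edgeR), a setting for which the share of all genes called is not given.

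**Figure D3:**
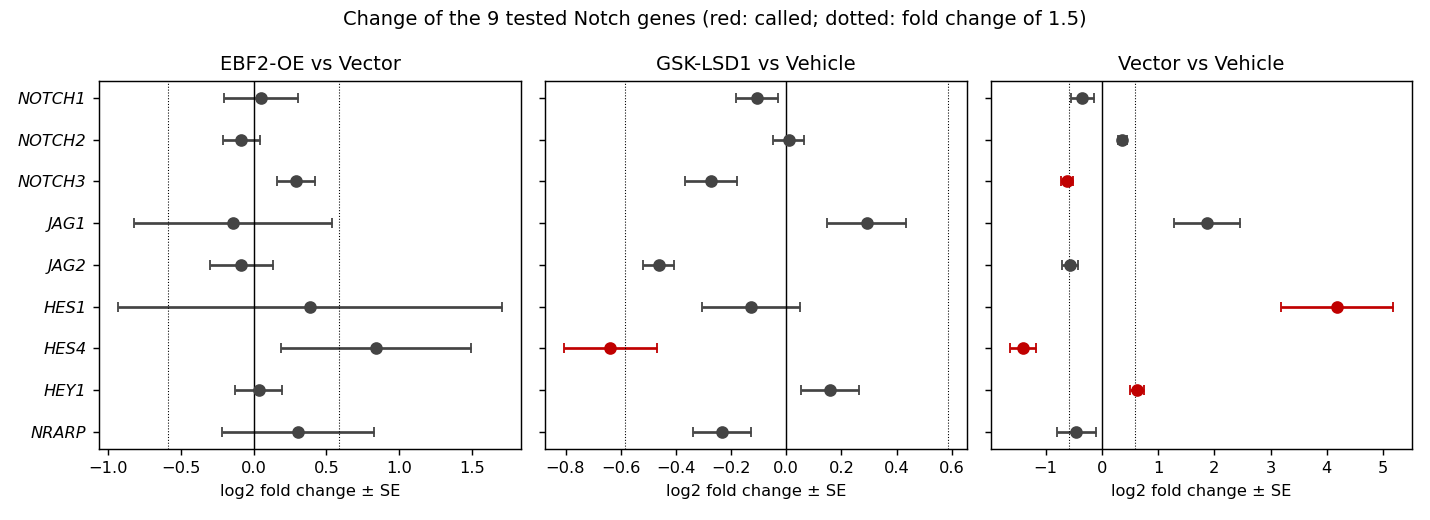
Log2 fold change with its standard error (x axis, a separate range in each panel) of the 9 tested members in EBF2-OE against Vector, GSK-LSD1 against Vehicle and Vector against Vehicle, with red for called genes and dotted lines at a fold change of 1.5. No member is red on the left, HES4 alone is red in the middle, and NOTCH3, HES1, HES4 and HEY1 are red on the right.

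The comparison of GSK-LSD1 with Vehicle asks what inhibition of LSD1 changes. HES4 fell 1.56-fold and was the only member called, and the ligand JAG2 fell 1.38-fold, under the fold limit. No receptor passed the test, and no member passed it in the upward direction. HES4 reached 1292 and 894 counts in the Vehicle libraries against 601 and 636 in the GSK-LSD1 libraries, or 42.5 ± 13.8 against 27.3 ± 1.35 CPM (normalized counts scaled to a common library total, mean ± SD, n = 2). The log2 fold change of HES4 was -0.64 ± 0.168 (SE) with an adjusted p of 0.0240 in edgeR. JAG2 reached 4446 and 4502 counts in the Vehicle libraries against 2816 and 2863 in the GSK-LSD1 libraries, or 172 ± 10.7 against 125 ± 2.64 CPM, with a log2 fold change of -0.46 ± 0.0563 and an adjusted p of 3.89e-04 in edgeR. The GSK-LSD1 libraries lay below the Vehicle libraries for both genes. The share of called members, 1 of 9, stands beside 4.57% of all 16059 genes tested, and the count of 2 members lower at an adjusted p under 0.05 without a fold limit stands beside 8.87%.

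The other 7 tested members did not pass the test. NOTCH1 reached 3999 and 4225 counts in the Vehicle libraries against 3059 and 3613 in the GSK-LSD1 libraries, with a log2 fold change of -0.11 ± 0.0750 and an adjusted p of 0.367 in edgeR. NOTCH2 stood at 0.01 ± 0.0566. NOTCH3 reached 8732 and 8531 counts in the Vehicle libraries against 5579 and 6921 in the GSK-LSD1 libraries, with a log2 fold change of -0.27 ± 0.0932 that did not pass (adjusted p of 0.0674). JAG1 stood at 0.29 ± 0.143 (adjusted p of 0.185), HES1 at -0.13 ± 0.179, HEY1 at 0.16 ± 0.104 and NRARP at -0.23 ± 0.105 (adjusted p of 0.151). HES1 was low in all 4 libraries of this experiment, with 109, 97, 87 and 78 counts. The groups did not overlap for 5 of the 9 members (NOTCH3, JAG1, JAG2, HES4 and HEY1), a count to be read against 60.2% of all genes. The median log2 fold change was -0.13 over the 9 members and -0.01 over all genes tested.

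The call of HES4 was not stable across settings. The adjusted p was 0.232 in DESeq2 and 0.698 in 1 edgeR fit over all 8 libraries, and without Vehicle 1 the log2 fold change was -0.26 (adjusted p of 0.0944). It was -0.58 (adjusted p of 0.188) without GSK-LSD1 1 and -0.69 (adjusted p of 0.130) without GSK-LSD1 2. JAG2 kept log2 fold changes from -0.53 to -0.40 when single libraries were left out, and had an adjusted p of 0.293 in the fit over all 8 libraries.

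Vector and Vehicle are both controls, and comparing them shows how far the Notch genes differ between the experiments. HES1 was 18.2-fold higher in Vector than in Vehicle, HEY1 1.54-fold higher, and HES4 2.65-fold lower, and the receptor NOTCH3 was lower with a log2 fold change of -0.63 ± 0.110 (adjusted p of 0.0167 in edgeR). These 4 of the 9 members were called, beside 16% of the 16019 genes tested. For HES1 the log2 fold change was 4.19 ± 0.995 (adjusted p of 0.0332), for HES4 -1.41 ± 0.234 (adjusted p of 0.0152) and for HEY1 0.63 ± 0.126 (adjusted p of 0.0226). NOTCH2 (0.37 ± 0.0776, adjusted p of 0.0254) and JAG2 (-0.57 ± 0.143, adjusted p of 0.0387) passed the p threshold in edgeR but not the fold limit. JAG1 stood at 1.87 ± 0.589 (adjusted p of 0.0661), NOTCH1 at -0.35 ± 0.205 and NRARP at -0.46 ± 0.342. The number of called members changed in both directions when single libraries were left out, and the share of all genes called in those fits is not given here. Without Vector 3, the log2 fold change of HES1 was 2.04 and that of JAG1 0.64. The empty vector and the experiment cannot be told apart in this comparison.

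A test of whether a member changed differently under EBF2-OE than under GSK-LSD1 was made on all 8 libraries. It called 0 members at an adjusted p under 0.05 in edgeR, and 0% of the 16558 genes tested. At an unadjusted p under 0.05 stood 1 member, and the share of all genes at that limit is not given. This member was NOTCH3, whose log2 fold change was higher by 0.55 ± 0.180 under EBF2-OE (p of 0.0143, adjusted p of 0.509). The difference for HES4 was 1.47 ± 0.794 (adjusted p of 0.732), for JAG2 0.37 ± 0.237 (adjusted p of 0.779) and for HES1 0.49 ± 1.82 (adjusted p of 0.974). Without a low-count filter HES4 and NOTCH3 were called, and the share of all genes called in that setting is not given.

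Beyond the members, 73 further genes of the pathway were listed by role, and 59 of them were tested in each treatment comparison, with NOTCH4 tested under GSK-LSD1 alone and DLL4 under EBF2-OE alone. Under EBF2-OE, 0 of the 59 were called by edgeR or by DESeq2, and 0 passed the fold limit at an unadjusted p under 0.05 in edgeR. No share of all genes is given for DESeq2 or for the unadjusted p. Under GSK-LSD1, 1 gene rose (DNER) and 3 fell (LFNG, MIB2 and NOTCH2NLA), a count of 4 of 59 to be read against the 4.57% called among all genes. Without the fold limit, 2 of the 59 passed the edgeR test upward and 9 downward, beside 9.86% and 8.87% of all genes. The median log2 fold change over the 59 genes tested in each comparison was -0.05 under GSK-LSD1 and 0.00 under EBF2-OE, beside -0.01 and 0.00 over all genes.

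DNER, a transmembrane protein described as a Notch ligand of neurons, reached 294 and 304 counts in the Vehicle libraries against 540 and 510 in the GSK-LSD1 libraries. It was 2.01-fold higher (log2 fold change 1.01 ± 0.0971, adjusted p of 9.09e-05 in edgeR), and its GSK-LSD1 libraries lay well above the Vehicle libraries. In TPM it measured 9.39 and 8.97 in Vehicle and 18.2 and 17.9 in GSK-LSD1, and 19.6 to 32.8 over the 4 libraries of the EBF2 experiment, where its log2 fold change under EBF2-OE was 0.05 ± 0.263. DLK2, a non-canonical ligand, stood at -0.04 ± 0.173 under GSK-LSD1. LFNG, a Fringe glycosyltransferase that modifies the receptors and shifts which ligands they answer to, reached 738 and 741 counts in the Vehicle libraries against 390 and 386 in the GSK-LSD1 libraries. It fell 1.67-fold (log2 fold change -0.74 ± 0.0897, adjusted p of 3.89e-04). The other 4 glycosylation genes were not called, and of these POFUT1, which adds the fucose that Fringe extends, stood at 0.09 ± 0.0506 and RFNG at -0.07 ± 0.0813.

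MIB2, a ubiquitin ligase that drives endocytosis of the ligands, reached 1798 and 1626 counts in the Vehicle libraries against 992 and 993 in the GSK-LSD1 libraries, and fell 1.51-fold (log2 fold change -0.60 ± 0.0887, adjusted p of 0.00128 in edgeR). Its relative MIB1 stood at 0.12 ± 0.0730 (adjusted p of 0.299), and EPN1, an endocytic adaptor, at -0.30 ± 0.0556 (adjusted p of 0.00399). Of the 10 genes of nuclear corepressors, which act with RBPJ in the absence of Notch signaling, 9 were lower in GSK-LSD1 than in Vehicle, as were 8187 of all 16059 genes, and 0 were called. An adjusted p under 0.05 was reached by 3 of them, TLE3 (-0.44 ± 0.0604), SPEN (-0.24 ± 0.0687) and KDM1A (-0.22 ± 0.0644, adjusted p of 0.0403), the last encoding LSD1, the protein that GSK-LSD1 inhibits. HDAC1, the corepressor gene with the highest TPM, stood at -0.02 ± 0.0468.

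The 9 genes of receptor cleavage all had a log2 fold change above 0, as did 7872 of all 16059 genes. None of the 9 was called, and the libraries of the groups overlapped for some of them, FURIN included. PSEN2, a subunit of the gamma-secretase that cuts the receptor within the membrane, passed the p threshold alone (0.37 ± 0.110, adjusted p of 0.0398 in edgeR), while FURIN stood at 0.12 ± 0.0633 and APH1A at 0.07 ± 0.0485. Among the 8 nuclear effectors, 0 were called, with CREBBP at -0.34 ± 0.0675 (adjusted p of 0.00632) and SNW1 at -0.04 ± 0.0527. Of the 10 turnover genes, DTX4 alone passed the p threshold (-0.43 ± 0.104, adjusted p of 0.0163), while NUMB and NUMBL stood at 0.07 ± 0.0589 and -0.07 ± 0.0636. Of the 8 other target genes (HES and HEY genes and DTX1), 4 were tested and 0 were called. Among these, HES7 reached 1453 and 962 counts in the Vehicle libraries against 671 and 788 in the GSK-LSD1 libraries (log2 fold change -0.54 ± 0.185, adjusted p of 0.0660), and HES2 stood at 0.14 ± 0.0788. Under EBF2-OE, HES2 stood at 0.57 ± 0.165 with an unadjusted edgeR p of 0.0129 and an adjusted p of 1.00.

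NOTCH2NLA, a partial copy of NOTCH2 found in humans, reached 339 and 298 counts in the Vehicle libraries against 186 and 157 in the GSK-LSD1 libraries, and its log2 fold change was -0.70 ± 0.143 (adjusted p of 0.00717 in edgeR). NOTCH2NLB stood at -0.36 ± 0.124 (adjusted p of 0.0685), and NOTCH2 at 0.01. Reads of these near-identical genes may have been split between them in counting. All 4 calls among the further genes were lost in the edgeR fit over all 8 libraries, where the log2 fold changes stayed close (1.01 for DNER, -0.73 for LFNG, -0.59 for MIB2 and -0.70 for NOTCH2NLA) while the adjusted p ranged from 0.105 (DNER) to 0.407 (MIB2). Leaving out a library took the calls of MIB2 and NOTCH2NLA away (without Vehicle 1, MIB2 at -0.44 and NOTCH2NLA at -0.53; without GSK-LSD1 1, MIB2 at -0.58; without GSK-LSD1 2, NOTCH2NLA at -0.59 with an adjusted p of 0.0911).

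**Figure D4:**
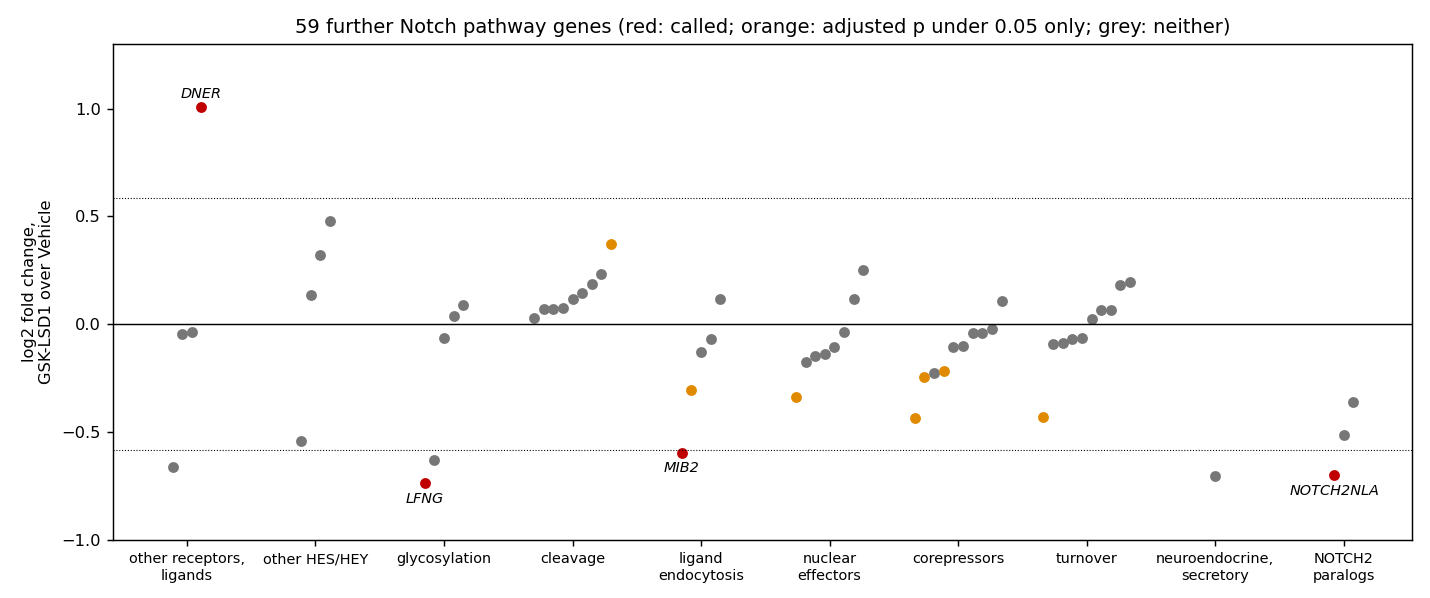
Log2 fold change of GSK-LSD1 over Vehicle (y axis) for the 59 tested further pathway genes, ordered within each role from low to high, with red for called genes, orange for an adjusted p under 0.05 alone, grey for neither, and dotted lines at a fold change of 1.5. DNER is the only red point above 0, LFNG, MIB2 and NOTCH2NLA are the red points below.

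Genes of neuroendocrine and secretory fate, which Notch signaling opposes in other tissues, were scarcely expressed. NEUROD1 and PTF1A, regulators of endocrine and exocrine fate, had 0 counts in all 8 libraries. INSM1, CHGA, GRP, NEUROG3 and ATOH1 had at most 5 counts in any library. SYP, a synaptic vesicle protein, was the only one of these 8 genes tested, reaching 34 and 39 counts in the Vehicle libraries against 9 and 30 in the GSK-LSD1 libraries (log2 fold change -0.70 ± 0.435, adjusted p of 0.297 in edgeR).

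The libraries held between 20453362 and 27054876 counts, and the 2 libraries of every group differed by more than counting noise (chi-square per degree of freedom from 5.70 to 36.1). The typical variation between libraries of a group was 19.0% in the EBF2 experiment and 5.87% in the GSK-LSD1 experiment. Keratin genes KRT8 and KRT18 were abundant, and the summed level of the 5 epithelial markers was 3703 to 6296 TPM, but EPCAM had 4 to 20 counts, KRT19 0 to 21 and CDH1 7 to 57. The summed duct markers reached 625 to 989 TPM, the acinar markers at most 0.0844 (2 of 3 at 0 counts), the leukocyte markers 10.98 to 30.9 (1 of 3 at 0 counts), the endothelial markers 0.503 to 5.02 and the fibroblast markers 37.4 to 55.4. The leukocyte sum was almost wholly CD68, with PTPRC at 1 to 9 counts. Some markers moved in the same comparison as the Notch genes. Under GSK-LSD1, the duct keratin KRT7 fell 1.61-fold (adjusted p of 2.19e-05 in edgeR) and the endothelial CDH5 fell 1.96-fold (adjusted p of 0.00150). The other markers of these lists did not all fall. In CPM, MUC1 had 235 and 192 in Vehicle against 220 and 257 in GSK-LSD1, and SOX9 8.82 and 7.36 against 7.49 and 6.65. The scarce PECAM1 had 0.567 and 0.513 against 0.657 and 0.621, and VWF 1.66 and 1.68 against 1.27 and 1.24. KRT8 and KRT18 were lower and CD68, COL1A1 and COL1A2 higher at adjusted p under 0.05 without passing the fold limit, with log2 fold changes from -0.45 (KRT18) to 0.55 (CD68). The part of these levels in the Notch results was not tested.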

How the data were processed

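RNA-seq of 8 libraries of SW1990 cells was used. Per the labels and the methods of the paper, poly(A) RNA was sequenced with paired ends. HISAT2 alignment by the authors was to hg38, and HTSeq gave the count of each gene. The annotation, tool versions and strand setting are not given in the sources used here, so that overlapping genes of opposite strand may share reads. The authors deposited raw counts per gene and the TPM calculated from them, which correct for length and library total but not for composition. The deposited TPM served to compare levels and the deposited counts to test them.

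Each comparison used its own 4 libraries. Counts were filtered by filterByExpr with a minimum count of 10, TMM-normalized and tested two-sided with edgeR 4.0.16 (R 4.3.3), with Benjamini-Hochberg adjustment over all genes tested. A difference between the 2 treatment contrasts was tested in 1 edgeR fit over all 8 libraries. Standard errors were taken from the test statistic. With 2 libraries a group, precision rests on few libraries, and counts cover counting error only. The alternatives were DESeq2 1.42.0, its size factors in edgeR, other low-count filters, 1 fit over 8 libraries, the library number as a block, no fold limit, unadjusted p-values and leaving out each library, where a group left with 1 library was assumed to vary like the others. The test was tried on simulated data.

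All members were described. From each of 10 further lists, the genes called in a treatment comparison and the 2 genes with the highest mean TPM were named. Further genes named outside this rule passed the p threshold alone, are relatives of a named gene or were not tested in every treatment comparison. They were picked after their values had been seen. Cell type markers were named apart from this rule. Results for a few genes first listed are not reported here, and these genes were taken out of the lists and of every count over them. List genes that are not named are included in the counts. The members and lists were chosen with earlier results of these data known. Promoter windows came from RefSeq tables of GRCh38.p14.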

Additional observations from a re-analysis of the deposited data

Results flagged for a closer look

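NOTCH3 was taken up because its groups did not overlap in either treatment comparison and its changes under the 2 treatments had opposite signs. The log2 fold change under EBF2-OE exceeded that under GSK-LSD1 by 0.554 ± 0.180 (SE) in the edgeR fit over all 8 libraries, with a p of 0.0143 and an adjusted p of 0.509. NOTCH3 was higher in both EBF2-OE libraries than in both Vector libraries (77.6 and 79.2 against 72.2 and 58.9 TPM) and lower in both GSK-LSD1 libraries than in both Vehicle libraries (70.5 and 90.9 against 104.7 and 94.5 TPM). This separation is what the rule for taking up a gene requires and is no further evidence. The unadjusted p likewise belongs to a gene picked for its opposite changes. The difference did not pass the correction over all genes.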

How the results depend on the processing

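For EBF2-OE against Vector, 0 members were called except without a low-count filter (1). For GSK-LSD1 against Vehicle, 1 member was called, but 0 with DESeq2 or in 1 fit over all 8 libraries, 2 without a fold limit and 0 to 1 with single libraries left out. Further pathway genes called under GSK-LSD1 numbered 4, but 0 in the fit over all 8 libraries, 11 without a fold limit and 3 to 6 with single libraries left out. For Vector against Vehicle, 4 members were called, and 0 to 7 with single libraries left out. A difference between the treatment contrasts was called for 0 members, 2 without a low-count filter, 1 at an unadjusted p under 0.05 and 0 to 1 with single libraries left out. Counts in these other settings have no share over all genes beside them, and the cause of the shifts was not tested. With the replicate block, 0 members and 0 further genes were called under EBF2-OE, 1 and 4 under GSK-LSD1, and 0 for the difference. Deviations of same-numbered libraries correlated at 0.347 in the EBF2 experiment and -0.0455 in the GSK-LSD1 experiment, and no source says that a number marks a shared culture. No paired analysis was possible for Vector against Vehicle because these groups share only the number 2. Of the single-gene values recalculated, 280 of 300 under EBF2-OE, 282 of 299 under GSK-LSD1 and 64 of 81 for Vector against Vehicle kept direction and side of the threshold, or moved by less than 1 SE. Of the called genes 0 changed sign. Under EBF2-OE no gene was called in the main fit, so that none could change sign as a called gene there. Depth limited DLL1, which was not tested.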
